A study of Mus musculus with 12 samples.

Results

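The genes described here are 10 markers of border-associated macrophages: Lyve1, Pf4, F13a1, Cbr2, Folr2, Stab1, Ednrb, Dab2, Cd38 and Wfdc17. They were chosen by name, with earlier results of these data known, so counts over them are descriptions. A gene was taken from the transcript clusters annotated to its symbol alone. Of the 10 genes, 8 were measured, each by 1 transcript cluster among 16755 on the array. No feature used here carries the symbol Cd38, an ectoenzyme that consumes NAD, or Wfdc17, a small secreted protein of mouse macrophages, so no value is given for either. The study compared microglia of Lrrc33-/- mice (called KO-labelled) with microglia of Lrrc33+/+ mice (called WT), with 3 samples labelled as biological replicates in each group. The current symbol of Lrrc33 is Nrros, and its protein tethers latent TGF-beta1 to the surface of myeloid cells. Both groups came from mice aged 3 weeks, and the sort gate took brain cells that were Ter119-, CD39+, CD11b+ and CD45low. Strain, allele structure and the number of mice per sample are not stated in the labels, so each p-value reflects the spread among these samples alone, part of which may be technical.

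Border-associated macrophages lie along the vessels, in the meninges and in the choroid plexus, outside the brain tissue proper that microglia occupy. They take up material from blood and cerebrospinal fluid and carry scavenger receptors, lectins and secreted factors that microglia hold at low levels. Microglia depend on TGF-beta signalling for their own gene programme. Among the markers, Lyve1, Stab1, Folr2 and Ednrb are receptors of the cell surface, Pf4 is a secreted chemokine, F13a1 and Cbr2 are enzymes, and Dab2 is an adaptor of endocytosis.

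Values were the authors' RMA summaries on the log2 scale, so 1 unit is a doubling, and the number of arrays limits the precision. Values of different genes come from different probes and are not set against each other. Array medians lay between 6.695 and 6.756. Nrros itself had values of 9.86, 9.89 and 9.83 in KO-labelled samples, against 9.94, 9.88 and 9.60 in WT samples, and did not pass (difference 0.05, SE 0.09; limma, Benjamini-Hochberg adjusted p = 0.759). Nrros RNA thus gives no check of the genotype, since probes may lie outside what was deleted, and every direction here rests on the labels. RNA of the sort markers differed as well, with Itgam (CD11b) at -1.81, Ptprc (CD45) at 0.46 and Entpd1 (CD39) at -0.36. WT replicate 3 stood apart in sex-linked RNA: its Xist median over probesets was 7.96, against 12.39 to 12.46 in KO-labelled samples and 12.24 to 12.33 in the other WT samples. The Y-linked gene Eif2s3y read 7.72 in WT replicate 3, against 3.06 to 3.15 on all other arrays. Sex-linked RNA was thus not balanced between the groups. Results without WT replicate 3 are given beside the markers below.

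Promoter windows of the markers are shown because most of the genes moved together. The windows, from RefSeq on build GRCm38.p6, run from 250 bases before a gene's start to 50 bases after it. There were 12 such windows for 9 of the 10 genes, and none for Lyve1. Pf4 had the largest rise, Cbr2 and Stab1 are an enzyme and a receptor that rose with it, and Ednrb is a receptor that did not pass. Capitals mark each match to GAGGAA, the core letters bound by PU.1, a transcription factor of all macrophages, on either strand.
Pf4, chr5:90772185-90772484, plus strand: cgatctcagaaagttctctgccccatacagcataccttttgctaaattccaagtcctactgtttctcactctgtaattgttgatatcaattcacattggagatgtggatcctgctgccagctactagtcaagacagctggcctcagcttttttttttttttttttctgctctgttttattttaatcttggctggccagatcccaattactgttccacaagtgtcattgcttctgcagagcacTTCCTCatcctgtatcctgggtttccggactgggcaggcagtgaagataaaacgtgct
Cbr2, chr11:120731972-120732271, minus strand: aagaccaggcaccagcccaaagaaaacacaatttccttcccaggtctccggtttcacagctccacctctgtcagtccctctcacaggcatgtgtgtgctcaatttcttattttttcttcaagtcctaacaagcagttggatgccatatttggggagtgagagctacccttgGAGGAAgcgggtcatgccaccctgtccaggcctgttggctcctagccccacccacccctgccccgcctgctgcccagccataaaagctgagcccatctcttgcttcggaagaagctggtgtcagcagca
Stab1, chr14:31168592-31168891, minus strand: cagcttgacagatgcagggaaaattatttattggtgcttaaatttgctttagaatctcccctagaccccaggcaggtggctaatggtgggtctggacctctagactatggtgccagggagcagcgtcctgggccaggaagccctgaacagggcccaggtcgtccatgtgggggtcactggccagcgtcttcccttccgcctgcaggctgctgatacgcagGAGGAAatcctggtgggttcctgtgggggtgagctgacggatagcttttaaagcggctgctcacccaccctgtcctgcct
Ednrb, chr14:103843652-103843951, minus strand: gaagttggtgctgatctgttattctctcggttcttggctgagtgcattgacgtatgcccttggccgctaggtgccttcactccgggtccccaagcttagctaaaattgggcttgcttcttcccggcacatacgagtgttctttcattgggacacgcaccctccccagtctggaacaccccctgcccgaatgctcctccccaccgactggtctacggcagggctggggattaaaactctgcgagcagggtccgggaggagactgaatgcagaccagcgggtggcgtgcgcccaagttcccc

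GAGGAA or its reverse complement stood in 8 of the 12 windows, belonging to 6 of the 9 genes, and in 28.3% of all 32851 promoter windows of the same length. The 6 include Wfdc17, which has no value. Folr2, which rose, had no match in either of its windows, so a match did not go with every rise. The match began at position -8 from the start in Pf4, -30 in Stab1 and -79 in Cbr2. TGCTGA, a core recognised by MAF factors, was found in 6 of the 12 windows and in 19.5% of all windows. GTCTG, a short element of SMAD factors, was found in 7 of the 12 and in 49.6% of all. No matches of these 3 motifs overlapped each other in the windows of the markers. A match describes letters only, and no binding was measured.

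Of the 8 measured markers, 6 rose in KO-labelled samples, 0 fell, while Lyve1 and Ednrb stayed short of the threshold (limma, Benjamini-Hochberg adjusted p of 0.05 over all clusters). Among all clusters 14.4% were called higher and 14% lower. The 6 rises ran from 1.08 to 3.22 (log2), or 2.12-fold to 9.33-fold, with standard errors of at most 0.0751 and adjusted p of at most 7.9e-06. The median change of the 8 was 1.89, against -0.02 over all clusters. In all 6 the KO-labelled arrays lay above the WT arrays without overlap, with gaps between the groups of at least 1.03; 20.4% of all clusters had that order. Without WT replicate 3 the same 6 genes passed. Their changes were then 3.2 for Pf4, 2.12 for F13a1, 2.09 for Cbr2, 2.06 for Dab2, 1.77 for Stab1 and 1.08 for Folr2. A bulk sample cannot tell a different number of cells of 1 type from different RNA per cell.

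**Figure D1:**
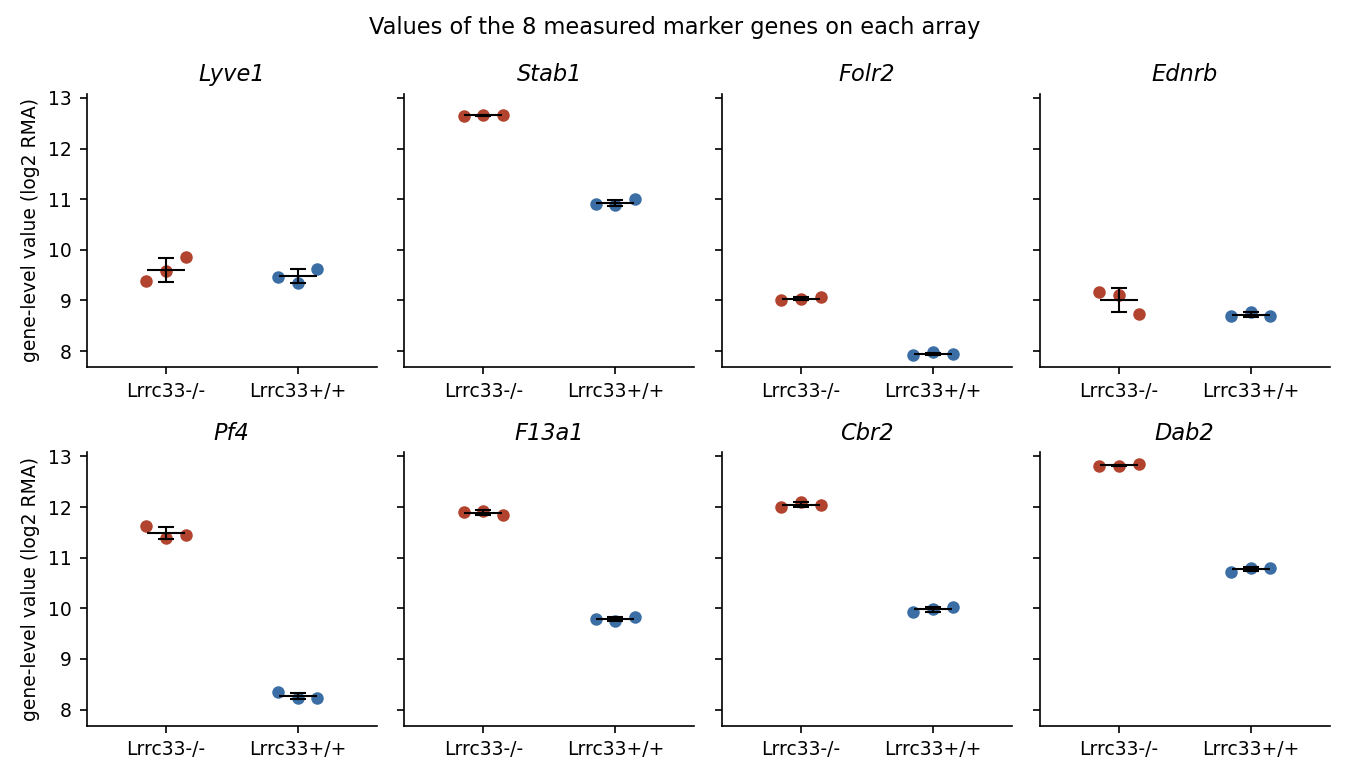
Gene-level log2 RMA value of each of the 8 measured markers on the 3 Lrrc33-/- arrays (red, left) and the 3 Lrrc33+/+ arrays (blue, right), with the mean and SD in black. The groups are apart for Stab1, Folr2, Pf4, F13a1, Cbr2 and Dab2, and overlap for Lyve1 and Ednrb.

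Lyve1 encodes a receptor for hyaluronan and marks a subset of perivascular and meningeal macrophages as well as lymphatic vessels. Its cluster (6970445) had values of 9.38, 9.58 and 9.85 in KO-labelled samples, against 9.47, 9.35 and 9.63 in WT samples. The lowest KO-labelled array lay within the WT range and the highest array of all was KO-labelled. The change was 0.12 (SE 0.13, 95% interval -0.18 to 0.43; limma, adjusted p = 0.56). The interval runs from 0.882-fold to 1.34-fold, so it does not reach the 2.12-fold of the smallest rise. The value in WT stood above the median of all clusters (6.72), as it did for all 8 measured markers. Lyve1 varied more within groups than most clusters, with a pooled SD of 0.194 at the 88.6th percentile. Leaving out 1 array at a time put the change between -0.0014, when KO replicate 3 was dropped, and 0.234, when KO replicate 1 was. It was 0.194 without WT replicate 3, and no such fit called Lyve1.

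Stab1 encodes stabilin-1, a large scavenger receptor that takes up altered lipoproteins and matrix proteins. The KO-labelled arrays read 12.65, 12.66 and 12.66, and the WT arrays 10.90, 10.88 and 11.00. Both groups were tight and lay far apart. Stab1 rose by 1.73 (SE 0.05), or 3.33-fold (limma, adjusted p = 1.7e-06), and by 1.77 without WT replicate 3.

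Folr2 encodes folate receptor beta, which is anchored in the membrane by a lipid and binds folate on macrophages. Its values were 9.01, 9.03 and 9.06 in KO-labelled samples, against 7.93, 7.97 and 7.94 in WT samples. The spread within either group was small beside the gap of 1.03, and its pooled SD stood at the 1.68th percentile of all clusters. Folr2 rose by 1.08 (SE 0.05), or 2.12-fold (limma, adjusted p = 7.9e-06), the smallest of the 6 rises.

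Ednrb encodes the endothelin receptor type B, a G protein-coupled receptor that astrocytes and endothelial cells also carry. Values of 9.17, 9.11 and 8.74 were seen in KO-labelled samples, against 8.69, 8.78 and 8.69 in WT samples. KO replicates 1 and 2 lay above all WT arrays and KO replicate 3 lay among them. The change of 0.28 (SE 0.11) did not pass (limma, adjusted p = 0.116, unadjusted p = 0.042). Without KO replicate 3 it was 0.418 and passed (limma, adjusted p = 0.0047), and without WT replicate 3 it was 0.269 (limma, adjusted p = 0.23).

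Pf4 encodes platelet factor 4, also called CXCL4, a chemokine stored in platelet granules and made by some macrophages. The KO-labelled arrays read 11.62, 11.39 and 11.45, and the WT arrays 8.34, 8.23 and 8.23. Every KO-labelled array was at least 3.05 above the highest WT array. Pf4 rose by 3.22 (SE 0.08), or 9.33-fold (limma, adjusted p = 5.9e-07). This was the largest rise of the 8 and stood at rank 27 of all 16755 clusters.

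F13a1 encodes the A subunit of coagulation factor XIII, a transglutaminase that crosslinks fibrin. It read 11.90, 11.92 and 11.83 in KO-labelled samples and 9.79, 9.75 and 9.84 in WT samples, and rose by 2.09 (SE 0.05; limma, adjusted p = 9.1e-07). Cbr2, a carbonyl reductase known from mouse lung, read 12.01, 12.09 and 12.04 in KO-labelled samples and 9.93, 9.99 and 10.03 in WT samples, and rose by 2.06 (SE 0.05; limma, adjusted p = 1e-06). Dab2, an adaptor that links receptors of the LDL receptor family to clathrin, read 12.82, 12.81 and 12.84 in KO-labelled samples and 10.72, 10.80 and 10.80 in WT samples. It rose by 2.05 (SE 0.05; limma, adjusted p = 7.9e-07). The changes of F13a1, Cbr2 and Dab2, of 4.27-fold, 4.17-fold and 4.13-fold, lay within 0.048 of each other on the log2 scale, no more than the standard error of any 1 of them. They ranked 114, 118 and 121 among all clusters, ahead of Stab1 at 178 and Folr2 at 429. Ednrb stood at rank 2087 and Lyve1 at 4021.

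Arrays of a group differed little over the set. Measured from its group's mean, the average over the 8 genes was between -0.0085 and 0.0079 on the 3 KO-labelled arrays and between -0.0188 and 0.0324 on the 3 WT arrays. KO replicates 1, 2 and 3 were the highest KO-labelled array for 2, 3 and 3 of the 8 genes.

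**Figure D2:**
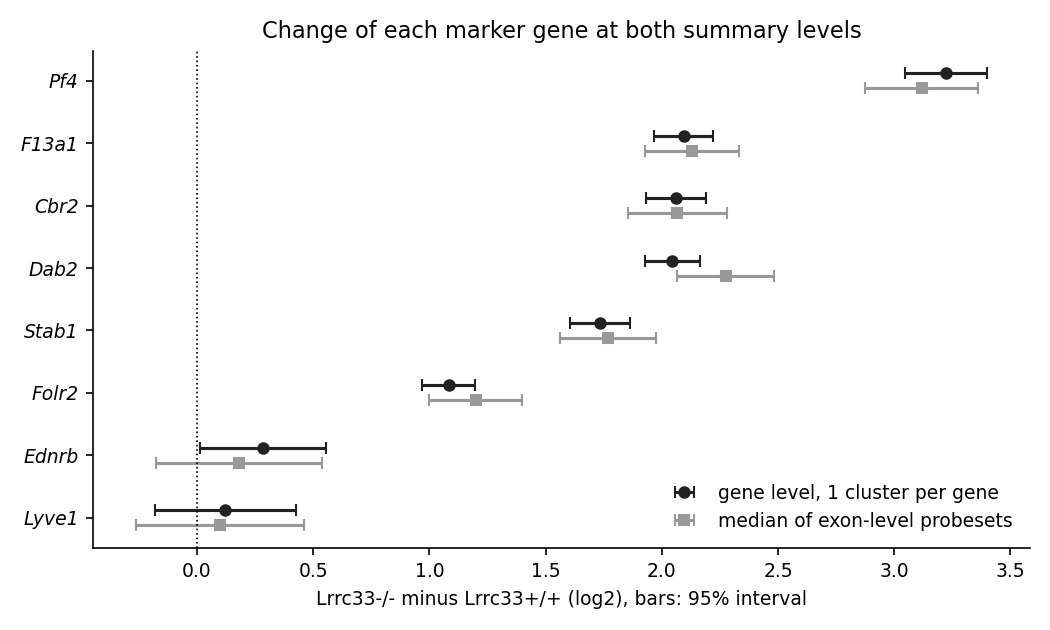
Change of each marker, Lrrc33-/- minus Lrrc33+/+ (log2), at the gene level (black circles) and as the median of the gene's exon-level probesets (grey squares), with 95% intervals. Pf4 lies at 3.22 and 3.12, and the intervals of Lyve1 reach 0 at both levels.

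The change of each marker was set against the change of Lyve1, because a gene that passes and a gene that does not are not thereby shown to differ. Lyve1's value was subtracted from every other cluster on the same array before the fit. The planned moderated fit called 6 of 7 genes higher, against 5.05% of all clusters, but its prior degrees of freedom were infinite, since every cluster then carries Lyve1's own scatter, and its p-values are not given. Without moderation, Pf4 rose more than Lyve1 by 3.10 (95% interval 2.52 to 3.68; limma without moderation, Benjamini-Hochberg adjusted p = 0.021). The differences were 1.97 for F13a1, 1.94 for Cbr2, 1.92 for Dab2 and 1.61 for Stab1, with adjusted p of at most 0.028. Thus 5 of 7 genes passed as higher, against 1.41% of all clusters. Folr2 exceeded Lyve1 by 0.96 (95% interval 0.54 to 1.38), which did not pass without moderation (limma, adjusted p = 0.078). Ednrb and Lyve1 differed in change by 0.16 (95% interval -0.64 to 0.96; limma without moderation, adjusted p = 0.80), an interval too wide to show that they behave alike. The exact permutation test over arrays gave p = 0.1, the smallest that 3 arrays against 3 allow, for each of the 7 genes except Ednrb (exact permutation p = 0.6).

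The exon-level table, taken by replicate number and matching profiles as the same arrays read by probeset, serves as a second reading, not as independent evidence. As the median of a gene's probesets, the same 6 markers rose and 0 fell, where 8.38% of all genes at this level were higher and 7.53% lower. The changes were 3.12 for Pf4, 2.27 for Dab2, 2.13 for F13a1, 2.07 for Cbr2, 1.77 for Stab1 and 1.20 for Folr2. Lyve1 stood at 0.10 (limma, adjusted p = 0.743) and Ednrb at 0.18 (limma, adjusted p = 0.504), neither past the threshold.

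Single probesets of a marker moved mostly in 1 direction. Over all 1236087 probesets, 2.59% were called higher and 2.16% lower. All 6 probesets of Pf4 and all 20 of F13a1 rose, as did 84 of 85 of Stab1, 26 of 27 of Dab2, 8 of 9 of Cbr2 and 6 of 8 of Folr2. The probesets of Stab1, Dab2 and Cbr2 that did not pass, 1 of each, were dimmer in both groups than the median of all probesets (5.81). In Lyve1, 0 of 12 probesets passed (limma, lowest Benjamini-Hochberg adjusted p = 0.475), 0 had an unadjusted p under 0.05, and the differences ran from -0.42 to 0.25 although all 12 stood above that median. In Ednrb all 19 probesets were higher on average, by 0.14 to 0.97, and 1 passed. That probeset (4952438) rose by 0.97 to a mean of 8.12 ± 0.19 in KO-labelled samples, against 7.15 ± 0.14 in WT samples (SD, n = 3 each; limma, Benjamini-Hochberg adjusted p = 0.0191).

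**Figure D3:**
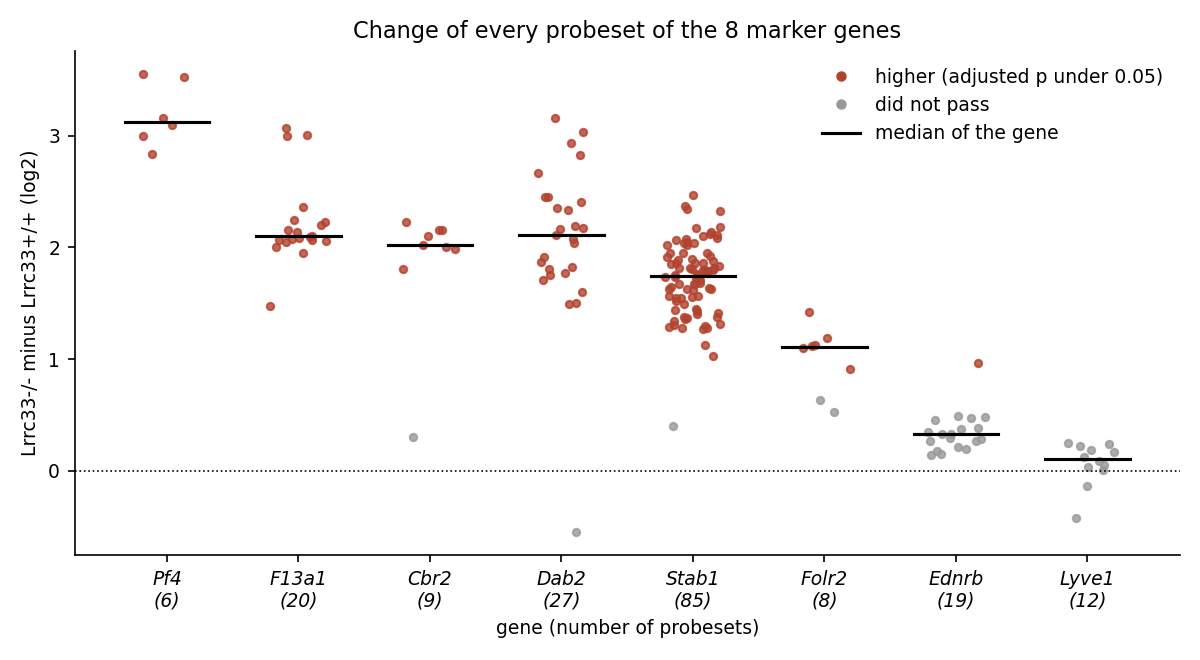
Change of every probeset, Lrrc33-/- minus Lrrc33+/+ (log2), by gene, with probesets that passed in red, those that did not in grey and the gene's median as a bar. All 20 probesets of F13a1 are red, 18 of 19 of Ednrb and all 12 of Lyve1 are grey.

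Exon usage, tested with limma's diffSplice, asks whether the probesets of a gene changed unequally. It called 31.5% of 16725 genes, and 4 of the 8 markers, namely Stab1, F13a1, Dab2 and Pf4 (diffSplice F test, Benjamini-Hochberg adjusted p = 3.4e-52, 1.4e-17, 7.8e-25 and 0.0104). Pf4 lost this call without any 1 array except KO replicate 2, with a highest adjusted p of 0.096. Folr2 was called without WT replicate 3 (diffSplice, adjusted p = 0.0083) and missed the threshold with all arrays (0.0545). In F13a1, 3 probesets (5000752, 5147360 and 5481600) rose by 3.06, 3.01 and 3.00, while the median of its 20 probesets was 2.10. In Dab2 the rises ran from 1.49 to 3.15 over the 26 probesets above the median brightness in a group.

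The relation of a probeset's change to its brightness differed between the markers. Across those 26 probesets of Dab2, the mean in WT and the change correlated at r = -0.797. The 13 probesets dimmer in WT had a median rise of 2.45 and the 13 brighter ones 1.82. Across 84 probesets of Stab1 the correlation was -0.62, with medians of 1.93 for the dimmer and 1.55 for the brighter 42. It was -0.914 for Cbr2 (8 probesets), -0.89 for Pf4 (6), -0.317 for F13a1 (20) and -0.158 for Ednrb (18). The sign was opposite for Folr2 (0.636, 7 probesets) and Lyve1 (0.602, 12 probesets). For Folr2 the rank correlation was 0.321. Its dimmest probeset of the 7 in WT (4347371, mean 5.40) also had the smallest change, 0.64. The sign for Folr2 may rest on that 1 probeset, which was not tested. The points of 1 gene share their arrays, and the WT mean enters both axes, so these are descriptions. Whether unequal change reflects isoforms was not tested, since no probe positions were used.

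**Figure D4:**
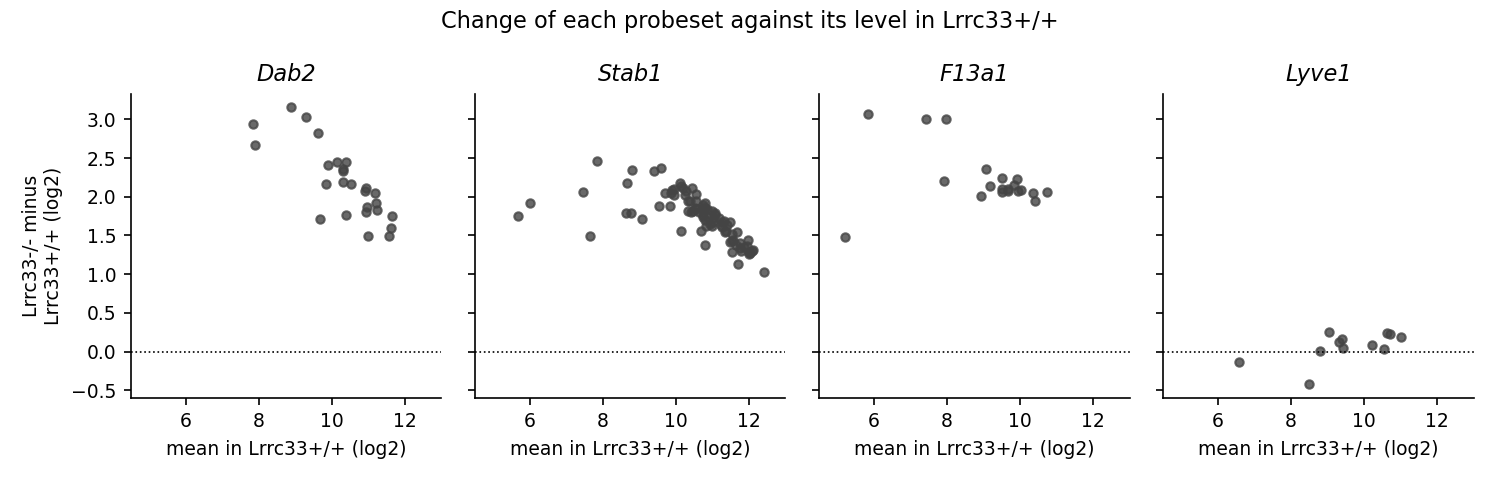
Change of each probeset (log2, vertical) against its mean in Lrrc33+/+ (log2, horizontal) for Dab2, Stab1, F13a1 and Lyve1, probesets above the median brightness only. The points of Dab2 and Stab1 slope down (r = -0.797 and -0.62), those of F13a1 do so weakly (r = -0.317), and those of Lyve1 lie between -0.42 and 0.25 (r = 0.602).

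Lists of genes that share a function with a marker are given by their counts, beside 14.4% higher and 14% lower among all clusters. All lists here and below were chosen with earlier results of these data known, so their counts are descriptions. Of 11 other genes of hyaluronan handling, 4 rose and 0 fell, with a median of 0.16. Hmmr, a hyaluronan receptor linked to cell division, rose 3.02-fold (limma, adjusted p = 1.6e-05), Cd44, the main hyaluronan receptor of leukocytes, by 1.47 (SE 0.11; limma, adjusted p = 8.6e-05), and the hyaluronidase gene Cemip2 by 1.39 (SE 0.09; limma, adjusted p = 3.6e-05). Stab2, the nearest relative of Stab1, named after its values were seen, rose by 0.24 (limma, adjusted p = 0.01) and by 0.616 at the exon level.

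Of 6 other genes of the endothelin system, 0 rose and 1 fell, or 1 rose without KO replicate 1. Edn1, a ligand of Ednrb, was at 5.21, 5.51 and 5.34 in KO-labelled samples, against 6.96, 6.85 and 6.60 in WT samples. It fell by 1.45 (SE 0.11; limma, adjusted p = 0.00011).

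Of 12 other folate genes, 3 rose and 3 fell, while Folr2 rose. Slc46a1, the proton-coupled folate transporter, had 8.90, 9.05 and 8.72 in KO-labelled samples, against 10.06, 10.06 and 10.05 in WT samples. It fell by 1.17 (SE 0.09; limma, adjusted p = 7.4e-05). The mitochondrial folate enzyme genes Mthfd2 and Aldh1l2 fell by 1.15 and 0.70. Folr1, the closest relative of Folr2, named after its values were seen, stood at 0.06 and did not pass.

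Of 11 other CXC chemokine genes, 4 rose and 0 fell, or 1 fell without WT replicate 3. Cxcl16 rose by 1.70 (SE 0.14), Cxcl2 by 1.29 (SE 0.12) and Ppbp, like Pf4 a platelet chemokine, by 1.13 (SE 0.14; limma, adjusted p = 0.00014, 0.00024 and 0.00097). At the exon level Ppbp rose by 1.94.

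Of 14 other genes of coagulation and transglutamination, 3 rose and 4 fell, while F13a1 rose. Thrombomodulin (Thbd), a brake on coagulation, rose by 1.87 (SE 0.12), whereas Pros1, which encodes protein S, fell by 1.09 (SE 0.06). The transglutaminase gene Tgm2 fell by 0.92 (SE 0.18; limma, adjusted p = 0.008).

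Of 15 other endocytic adaptor and receptor genes, 4 rose and 5 fell, while Dab2 rose. The scaffold gene Itsn1 rose by 2.46 (SE 0.05). The motor gene Myo6, whose protein binds Dab2, fell by 2.32 (SE 0.08), and Numb, which like Dab2 carries a phosphotyrosine-binding domain, fell by 2.31 (SE 0.09; limma, adjusted p = 4.3e-07, 2.7e-06 and 5.4e-06 in that order).

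Of 8 other carbonyl reductases and related enzymes, 4 rose and 0 fell. Dcxr rose by 0.81, Hpgd, which inactivates prostaglandins, by 0.45 and Akr1a1 by 0.45. The other genes named Cbr, Cbr1 (-0.28), Cbr3 (-0.18) and Cbr4 (0.01), named after their values were seen, did not pass. At the exon level Cbr1 changed by -0.603 and passed (limma, adjusted p = 0.0028).

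For Cd38 and Wfdc17, which have no value, relatives were measured. Of 14 genes of NAD metabolism, 7 rose and 1 fell, and the 1 that fell was lost at the exon level and when any of KO replicates 1 and 3 or WT replicates 2 and 3 was dropped. Parp14 rose by 0.82 (SE 0.18), Nampt, which recycles nicotinamide, by 0.77 (SE 0.10) and the ADP-ribose-gated channel gene Trpm2 by 0.71 (SE 0.09). Bst1, the relative of Cd38, named after its values were seen, rose by 0.26 (SE 0.05; limma, adjusted p = 0.0094). Of 7 genes with a WAP domain, the type of Wfdc17, only Wfdc18 passed (0.23; limma, adjusted p = 0.049), and it missed the threshold without any 1 array except WT replicate 1.

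The wider list of border-associated macrophage genes moved with the 6 markers. Of 30 measured genes other than the 10, 27 rose and 0 fell, against 14.4% higher among all clusters, with a median change of 1.42. The list was chosen with earlier results of these data known, so this count describes the list and is not independent evidence. The lectin genes Clec4n and Mgl2 rose by 4.21 (SE 0.11) and 3.81 (SE 0.05), and Axl, a receptor for the clearance of dead cells, by 3.47 (SE 0.16). Cd163, the receptor for haemoglobin bound to haptoglobin, Mrc1, the mannose receptor, and Timd4, a receptor for phosphatidylserine, occur in the same macrophages as Lyve1. They are named after their values were seen and rose by 2.59, 1.81 and 1.14, while Lyve1 did not pass. The 3 genes that did not pass were Colec12 (0.31), Cd209d (-0.12) and Tgfbr3 (-0.05). Leaving out any 1 array gave the same counts, 27 higher and 0 lower.

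Genes of the MHC class II high type of border-associated macrophage were divided. Of 8 measured, 2 rose and 2 fell, with 1 higher without KO replicate 3 or WT replicate 3 and at the exon level, and 3 higher without KO replicate 2. Cd74, the invariant chain, rose by 0.95 (SE 0.13; limma, adjusted p = 0.0013). Cd52 had 10.39, 10.11 and 10.63 in KO-labelled samples, against 9.92, 9.84 and 9.28 in WT samples (0.70; limma, adjusted p = 0.036), but it lost the call when any of KO replicates 1 and 3 or WT replicates 2 and 3 was dropped. The chemokine receptor gene Ccr2 fell by 0.83 (SE 0.08). H2-Aa and H2-Ab1, named after their values were seen, were at 0.45 and 0.18 and did not pass, and H2-Aa passed when KO replicate 1 or WT replicate 2 was dropped. At the exon level H2-Aa had the opposite sign (-0.333; limma, adjusted p = 0.16).

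**Figure D5:**
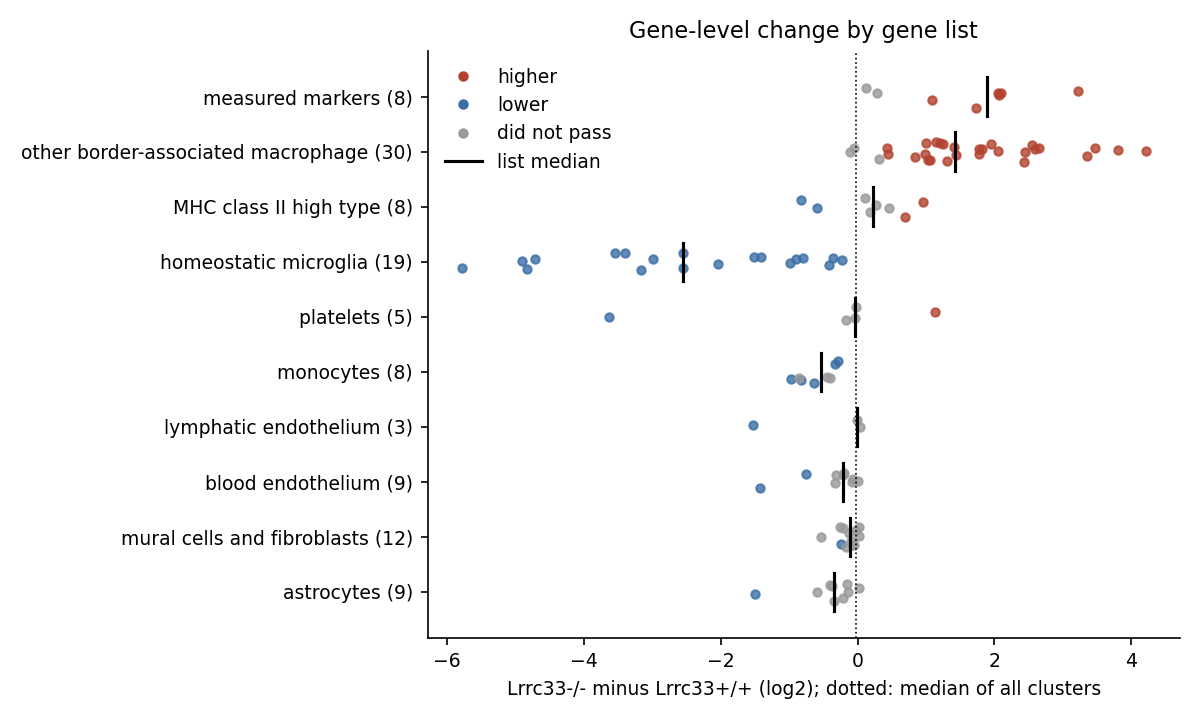
Gene-level change, Lrrc33-/- minus Lrrc33+/+ (log2), of each measured gene by list, with higher genes in red, lower in blue, those that did not pass in grey, the list median as a black bar and the median of all clusters dotted. Other border-associated macrophage genes have a median of 1.42 and homeostatic microglia genes of -2.55.

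The listed genes of homeostatic microglia stood above the median of all clusters in WT and fell in KO-labelled samples, all 19 measured. Among all clusters 14% were lower. The falls were unequal, with a list median of -2.55 and the smallest in Csf1r, by 0.24. The mean of the list was 9.605 to 9.673 on KO-labelled arrays, against 12.09 to 12.15 on WT arrays. Sall1 fell by 5.79, Adgrg1 by 4.91 and Sparc, a matrix protein that stabilin-1 binds, by 4.84. The part of a shift in cell identity or cell mixture in the rise of the 6 markers was not tested.

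Several markers also occur in cells that the sort could carry, and the markers of those cells were read beside them. Of these, 3 of 5 platelet, 3 of 8 monocyte and 1 of 3 lymphatic vessel genes stood above the median of all clusters in WT. RMA shrinks changes of dim genes, so a lack of rises among dim genes says little about such cells. Of 5 platelet genes, relevant to Pf4 and F13a1, 1 rose (Ppbp) and 1 fell (Gp9, by 3.64, or by 1.9 at the exon level). List means were 6.266 to 6.563 in KO-labelled samples, against 6.952 to 6.985 in WT samples. The list median change was -0.04, so the lower means rest mainly on Gp9. Of 8 monocyte genes, relevant to F13a1, 0 rose and 5 fell, with means of 6.126 to 6.564, against 6.783 to 7.01 in WT samples. The count of falls was 1 when KO replicate 1 or WT replicate 2 was dropped, 2 when KO replicate 2 was, 3 when WT replicate 1 or 3 was, and 6 when KO replicate 3 was. Plac8 fell by 0.98, Ccr2 by 0.83 and Hp by 0.63, and Plac8 and Hp each lost the call in 4 of 6 such fits. Of 3 genes of lymphatic vessels, relevant to Lyve1, Prox1 fell by 1.53 and the others did not pass, with means of 6.008 to 6.119, against 6.532 to 6.58. The list median change was -0.01, so these means rest mainly on Prox1.

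Of 9 genes of blood vessels, relevant to Ednrb and Stab1, 0 rose and 2 fell, Pecam1 by 1.43 and Kdr by 0.75. Their means were 5.565 to 5.711 in KO-labelled samples, against 5.829 to 6.244 in WT samples. Of 12 genes of mural cells and fibroblasts, 0 rose and 1 fell (Abcc9, by 0.24), or 2 fell without WT replicate 3. Of 9 astrocyte genes, relevant to Ednrb, 0 rose and 1 fell, the glutamate transporter gene Slc1a3, which was 2.83-fold higher in WT, with 2 lower without KO replicate 3 and 4 without WT replicate 1. Astrocyte means were 6.876 to 6.977 in KO-labelled samples, against 7.083 to 7.572 in WT samples, highest in WT replicate 2. In these lists of vessel, mural and astrocyte genes 0 rose. In that order, 2 of 9, 3 of 12 and 7 of 9 genes stood above the median of all clusters in WT. Among genes of lymphocytes, neutrophils, neurons and the oligodendrocyte lineage, 0 passed limma's adjusted threshold. Of these lists, in the same order, 2 of 9, 5 of 9, 1 of 7 and 5 of 7 genes stood above that median in WT. The gene with the lowest p in each of these lists was Cd3e (change 0.21, adjusted p = 0.066), Ltf (change -0.57, adjusted p = 0.17), Snap25 (change 0.42, adjusted p = 0.064) and Mag (change -0.13, adjusted p = 0.19), by limma. Without KO replicate 2, 1 lymphocyte gene was higher, and without KO replicate 3, 1 neutrophil gene was lower. Of 4 erythroid genes 1 rose, Epor, by 1.73, with list means of 6.28 to 6.465 in KO-labelled samples, against 5.895 to 5.958 in WT samples. The list median change was 0.07, so the higher means rest mainly on Epor. The part of other cells in the results was not tested.

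The clusters most like the extreme markers were found by the distance between profiles over the 6 arrays, each profile measured from its own WT mean, among 14995 other clusters with 1 symbol. Nearest to Pf4, the marker with the largest change, were Cpne8 (distance 0.199, change 3.25), Dnase1l3 (0.26, change 3.17) and Aoah (0.317, change 3.35). Nearest to Lyve1, with the smallest change, were Gbp5 (distance 0.135), Trim65 (0.153) and Rbm26 (0.16), with changes of 0.09, 0.14 and 0.14 that did not pass. The change is part of this distance, so near clusters have a like change by construction.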

How the data were processed

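RNA of microglia from 3 KO-labelled and 3 WT samples was run on Affymetrix mouse exon arrays, 1 array a sample. The deposited log2 values were made by the authors with RMA, per the submitters' processing notes, which also name oligo and limma for the exon level with no role or version. No genome build is stated in the labels. RMA pulls dim signals towards a floor and so shrinks changes of dim genes. The 12 labelled columns hold 6 arrays at 2 levels, and 0 columns were left unmapped.

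Genes were named from the platform annotation, updated through a RefSeq table of GRCm38.p6: 14996 of 16755 clusters and 321091 of 1236087 probesets had 1 symbol, and no other feature was named. For genes on several clusters the brightest was kept. Differences are KO-labelled minus WT, tested with limma 3.58.1 in R 4.3.3 (lmFit and eBayes, two-sided, no covariate) over all features, with Benjamini-Hochberg adjustment at 0.05. Errors of differences are moderated standard errors. diffSplice used 232232 probesets, with at least 3 a gene and a higher group mean at or above the median. The fits were tested on simulated data.

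The markers and lists were chosen with earlier results of these data known. Besides the markers, Nrros and the sort markers, up to 3 other genes a list with the largest change past the threshold are named, or the gene with the lowest p where none passed, and the 3 clusters nearest to the markers with the largest and the smallest change. Outside this rule, Xist, Eif2s3y and genes related to the markers by family or name (Stab2, Folr1, Cbr1, Cbr3, Cbr4 and Bst1) are named. So are Cd163, Mrc1, Timd4, Colec12, Cd209d, Tgfbr3, H2-Aa, H2-Ab1 and Csf1r. All of these were chosen after their values were seen. Alternatives left out each array and changed the block, variance prior, array weights, normalization, dim features and summary level. Comparing members with Lyve1 used pooled-variance t-tests without moderation in place of the planned moderated limma fit, a choice made after seeing the data.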

Additional observations from a re-analysis of the deposited data

How the results depend on the processing

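The 6 markers that rose kept their direction and their call in all 13 alternatives at the gene level and all 13 at the exon level, which gave 6 to 7 and 6 higher genes and 0 lower. Leaving out 1 array gave 6 to 7 genes at the gene level, the seventh being Ednrb without KO replicate 3, and 6 at the exon level. With the replicate block 6 genes rose and 0 fell. The numbers are not shown to pair the samples: deviations of same-numbered samples correlated at -0.0293, -0.00706 and 0.0393, and over all clusters the block called 25.3%, against 28.4% without it. Lyve1 passed in none of these alternatives, with changes of -0.0402 to 0.234. Set against Lyve1, 6 genes passed under the planned moderation, whose p-values were set aside above, and 5 without it, where Folr2 missed the threshold. With array weights Ednrb also passed against Lyve1 (0.305), but that fit was moderated as well, so the call carries no weight. Without moderation Ednrb did not pass (limma without moderation, adjusted p = 0.80). Unequal exon usage was called for 3 to 4 genes when 1 array was left out and for 5 with dim probesets kept, where Cbr2 was added. No marker was dim enough to be dropped by the filter, and each had 1 cluster, so averaging clusters changed nothing for the markers. The planned exon-level reading of genes absent from the gene level gave no value for Cd38 and Wfdc17, and its alternatives were run on the exon-level reading of the 8 measured genes.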
